A study of Mus musculus with 20 samples.

Results

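Of the 22090 gene symbols in the count table, 7 were examined: the cytokine gene Ifng, the chemokine genes Cxcl9, Cxcl10, Ccl5 and Cxcl16, and the chemokine receptor genes Cxcr3 and Cxcr6. The rule that chose them names the genes and uses no measured value, but it was set with earlier results of these data known. Among those, the paper had already named Cxcl9 and Cxcl10 in AK. The mice were SKH-1, a hairless strain with an intact epidermis that develops tumors under ultraviolet radiation, and all 8 were females aged 7 months. By the paper this was their age when divided into groups. Lamps giving ultraviolet A and B irradiated 4 of them (UVR) and the other 4 were left unirradiated. Tissue was taken after many weeks of irradiation, when the mice were older. RNA-seq was obtained for 8 normal skin (NS), 8 actinic keratosis (AK, a precancerous lesion) and 4 cutaneous squamous cell carcinoma (cSCC) samples. AK and cSCC tissues came only from irradiated mice, 4 in number, so the 8 AK samples are not 8 mice. NS came from both irradiated and unirradiated mice, which the labels do not tell apart, so a difference between AK and NS that comes from the lesion and one that comes from the irradiation cannot be told apart. Each library is whole skin tissue, in which fewer cells of a type and less RNA per cell cannot be told apart.

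Interferon gamma, the protein of Ifng, is made mainly by activated T cells and natural killer (NK) cells. It binds the receptor Ifngr1 and Ifngr2, which acts through the kinases Jak1 and Jak2 on gene transcription. Cxcl9 and Cxcl10 are among the best-known targets of this route, and their shared receptor Cxcr3 is carried by effector T cells and NK cells, which move toward these chemokines. Ccl5 is made by T cells, NK cells and other cells and binds Ccr1 and Ccr3, among other receptors. Cxcl16 is made as a membrane-bound protein that the protease Adam10 can release, and its receptor Cxcr6 marks many T cells that stay in tissues such as the skin.

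The sequences before the start sites of Cxcl9 and Cxcl10 are shown because these chemokines are the members whose levels differed between AK and NS. Both lie on the minus strand of chromosome 5, Cxcl9 at chr5:92321347-92328079 and Cxcl10 at chr5:92346638-92348889 (GRCm38). Each window runs from 250 bases before to 50 bases after the RefSeq start site (GRCm38.p6), at chr5:92328030-92328329 for Cxcl9 and chr5:92348840-92349139 for Cxcl10. Capitals mark matches to the core of the interferon-stimulated response element (GAAANNGAAA), the gamma-activated site (TTCNNNGAA) or a kappaB form (GGGNNNNNCC), searched on both strands.
Cxcl9: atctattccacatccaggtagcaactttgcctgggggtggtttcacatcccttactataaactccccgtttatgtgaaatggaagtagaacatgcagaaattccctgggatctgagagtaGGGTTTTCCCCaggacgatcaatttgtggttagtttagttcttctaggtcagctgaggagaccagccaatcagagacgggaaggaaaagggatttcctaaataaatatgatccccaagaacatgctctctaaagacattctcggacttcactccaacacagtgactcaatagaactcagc
Cxcl10: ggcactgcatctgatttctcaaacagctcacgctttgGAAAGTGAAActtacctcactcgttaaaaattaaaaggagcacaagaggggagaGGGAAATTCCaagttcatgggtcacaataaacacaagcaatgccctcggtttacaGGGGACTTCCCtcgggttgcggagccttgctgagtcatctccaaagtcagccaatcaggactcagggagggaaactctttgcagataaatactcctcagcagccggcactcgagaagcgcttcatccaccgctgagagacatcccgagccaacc
The Cxcl10 window held a response element core 213 to 204 bases before the start site, a match found in 3.44% of the 32851 RefSeq windows of this length. The kappaB form was matched in both windows, once in Cxcl9 and at 2 places in Cxcl10 when overlapping matches are joined, but 50.8% of all windows hold it. Neither window matched the gamma-activated site form, which the Ifng window held 249 to 241 bases before its start site and 8.30% of all windows hold. A search for fixed letters can miss elements that differ from them, so a window without a match may still hold an interferon gamma element. The Cxcr3 window (chromosome X) had 1 match to the kappaB form and the Cxcr6 window (chromosome 9) had none of these matches. The windows of Ccl5 and Cxcl16 were not analysed here.

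Total counts ranged from 1624325 to 6295575 in NS, from 867219 to 14055206 in AK and from 775750 to 7095102 in cSCC. Levels are CPM (counts per library size, with TMM factors), and the level that 3 counts give ran from 0.225 CPM in the largest library to 3.78 CPM in AK replicate 12. In cSCC, 2 samples stood apart. A list of 8 lung epithelium genes, with the surfactant gene Sftpc at 22389 CPM, summed to 36039 CPM in cSCC replicate 20 and to at most 59.3 CPM in every other sample. A list of 10 cardiac muscle genes, with the heart actin gene Actc1 at 15454 CPM, summed to 61471 CPM in cSCC replicate 21 and to at most 167 CPM elsewhere. The 8 keratinocyte markers summed to 6514 and 4439 CPM in these 2 samples, against 26782 and 18159 CPM in cSCC replicates 18 and 19 and at least 13656 CPM in NS and AK. cSCC replicate 18 had a TMM factor of 0.509, with 0.852 to 1.22 in the others. The log2 fold changes of the members fitted in cSCC are therefore given with and without replicates 20 and 21, and levels on library size alone, without TMM factors, where they change the place of replicate 18.

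Ifng was low in every group and highest in AK. In NS its lowest, median and highest levels were 0, 0.868 and 2.25 CPM, and only 3 of the 8 samples reached 3 counts. In AK they were 1.20, 3.96 and 8.45 CPM, and 7 of the 8 samples reached 3 counts. All AK samples but replicate 16 lay above the highest NS sample, replicate 5 (10 counts). Of these, AK replicate 12 (5.04 CPM) had 4 counts, and AK replicate 14 (2.41 CPM, 8 counts) lay just above NS replicate 5. The low counts kept Ifng out of the fit across genes for AK vs. NS, so its mean log2(CPM + 1) was compared by a two-sided exact permutation test over the 12870 assignments of the samples. That test, like the edgeR fits, takes the samples as independent, which the AK samples, from 4 mice, are not. AK had a mean of 2.30 ± 0.713 (SD, n = 8) and NS of 0.80 ± 0.724 (SD, n = 8), a difference of 1.5 (exact permutation p = 0.00124, not adjusted for the number of genes). With no filter on low counts, edgeR gave a log2 fold change of 2.18 ± 0.677 (SE) and an adjusted p of 0.0865, so Ifng did not pass the threshold over all genes. In cSCC replicates 18, 19, 20 and 21, Ifng stood at 0, 2.64, 2.28 and 0 CPM, from 0, 6, 2 and 0 counts. No count was seen in replicates 18 and 21, which allows levels of up to 2.08 and 0.496 CPM (3 counts, counting error only). For cSCC vs. AK the log2 fold change was -1.95 ± 0.953 (SE), not past the threshold (edgeR, adjusted p = 0.146), and -1.52 without replicates 20 and 21 (adjusted p = 0.336). Against NS the difference of mean log2(CPM + 1) was 0.10 (exact permutation p = 0.798). Gm49751, an uncharacterised transcript that shares 336 exonic bases with Ifng on the same strand, was not analysed here.

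Cxcl9 and Cxcl10 rose together in AK. The lowest, median and highest Cxcl9 levels were 4.05, 15.5 and 108 CPM in NS and 56.9, 139 and 382 CPM in AK. Of the 8 AK samples, 6 lay above the highest NS sample, which was replicate 7. AK averaged 160 ± 99.5 CPM (SD, n = 8) and NS 31.0 ± 35.8 CPM (SD, n = 8), a log2 fold change of 2.36 ± 0.566 (SE) by edgeR's quasi-likelihood test (adjusted p = 0.0278). Cxcl10 stood at 0.290, 4.50 and 56.8 CPM in NS (lowest, median, highest) and at 21.4, 68.1 and 118 CPM in AK. Here 5 of the 8 AK samples lay above the highest NS sample, again replicate 7. AK averaged 67.5 ± 33.3 CPM of Cxcl10 (SD, n = 8) and NS 13.98 ± 19.1 CPM (SD, n = 8), a log2 fold change of 2.26 ± 0.637 (SE) by edgeR (adjusted p = 0.0445).

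These 2 genes were the only members called in AK vs. NS, where called means an edgeR adjusted p under 0.05 with a fold change above 1.5 or below 0.67. Of the 5 members that passed the filter on low counts, 2 were called higher and 0 lower, beside 2.26% of the 11677 genes tested called higher and 2.38% called lower. The paper had already named both genes in AK from this study, so the share of members called is not free of earlier results. The Cxcl10 call was fragile: it held in 3 of the 16 fits that each left out 1 sample, while the Cxcl9 call held in 14, being lost without NS replicate 4 (adjusted p = 0.0581) or AK replicate 13 (adjusted p = 0.0600). Without NS replicate 7, the highest NS sample for both, the log2 fold changes were 3.02 for Cxcl9 and 3.18 for Cxcl10. With all 20 samples in 1 fit neither was called (adjusted p = 0.0886 for Cxcl9 and 0.167 for Cxcl10), and 5 genes were called higher and 4 lower over the whole table. The macrophage and dendritic markers, 10 of 11 analysed, summed to 386 to 981 CPM in NS and 580 to 1153 CPM in AK, none was at 0 in a whole group, and 0 of 7 tested were called by edgeR, DESeq2 or limma voom, with 2 at an unadjusted p under 0.05 in edgeR, Csf1r (log2 fold change -0.51) and Ly6c2 (0.64). Their part in the 2 chemokine levels was not tested.

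In cSCC both chemokines varied widely. Replicates 18, 19, 20 and 21 had 84.7, 92.3, 29.6 and 6.95 CPM of Cxcl9 and 93.8, 19.8, 11.4 and 1.16 CPM of Cxcl10. Replicates 18 and 19 lay within the AK range for Cxcl9, and for Cxcl10 only replicate 18 did. All 4 Cxcl9 values lay within the NS range, while Cxcl10 in replicate 18 exceeded every NS sample. On library size alone replicate 18 had 43.1 CPM of Cxcl9, below the lowest AK sample (59.2 CPM), and 47.7 CPM of Cxcl10, below NS replicate 7 (56.5 CPM), and the Cxcl10 log2 fold change for cSCC vs. NS was 0.55. The log2 fold changes for cSCC vs. AK were -1.51 ± 0.597 (SE) for Cxcl9 and -1.07 ± 0.737 (SE) for Cxcl10, neither past the threshold (edgeR, adjusted p = 0.0767 and 0.306). For cSCC vs. NS they were 0.81 ± 0.807 (SE) and 1.18 ± 1.04 (SE), also not past it (adjusted p = 0.509 and 0.457). Without replicates 20 and 21 they were 1.53 and 2.01 against NS (adjusted p = 0.267 and 0.236) and -0.79 and -0.24 against AK (adjusted p = 0.350 and 0.830). Without cSCC replicate 18 the Cxcl10 value for cSCC vs. NS turned to -0.40, and that for cSCC vs. AK became -2.69 and was called lower. In the latter fit 1664 of 12734 genes were called lower. Art3, a gene on the opposite strand, shares 133 exonic bases with Cxcl10, and the sources used here do not say whether counting used the strand. Art3 was highest in cSCC replicate 21, at 565 CPM, the cSCC sample with the lowest Cxcl10.

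**Figure D1:**
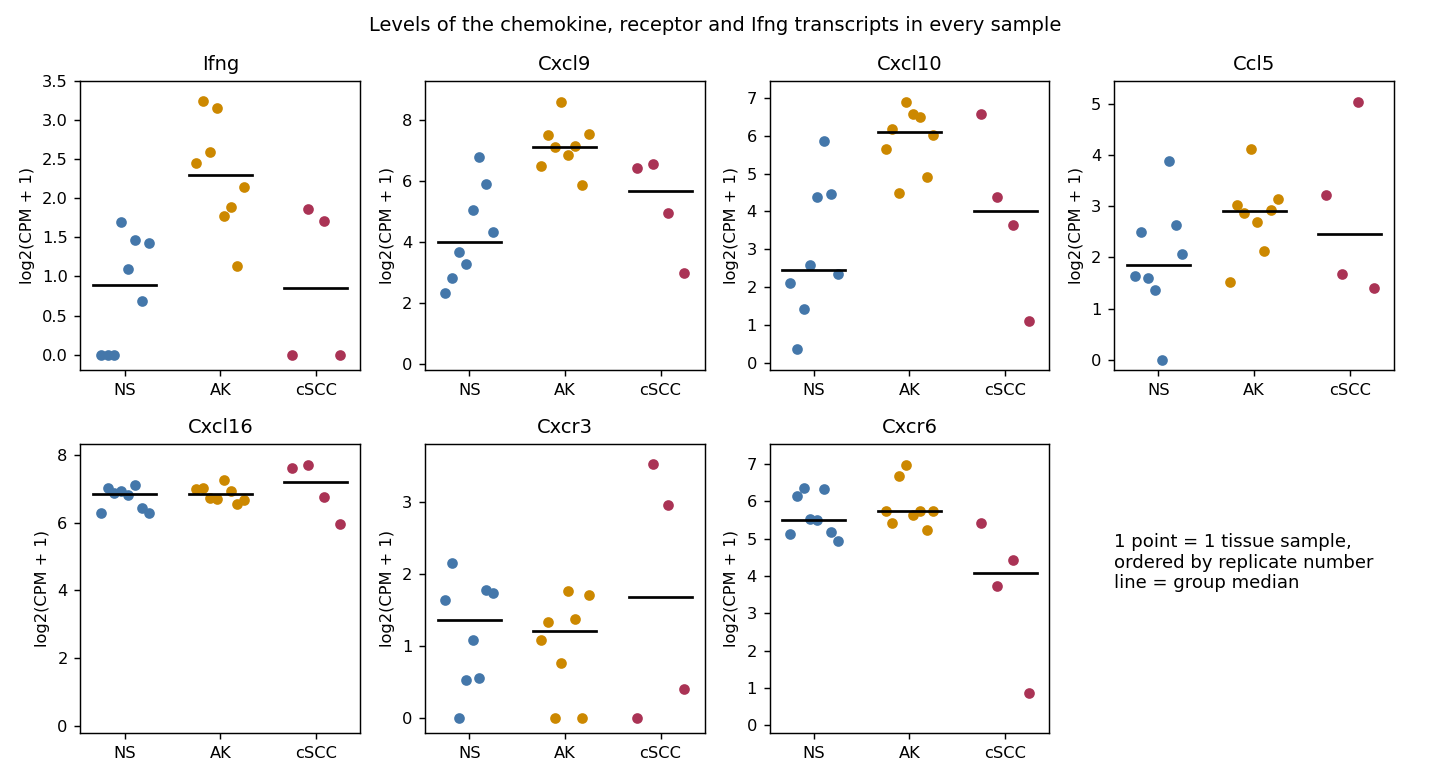
Levels of the 7 genes, log2(CPM + 1), with 1 point per tissue sample (8 NS, 8 AK, 4 cSCC, in order of replicate number) and a line at each group's median. AK points of Cxcl9, Cxcl10 and Ifng mostly sit above the NS points, while Cxcl16 stays within a narrow range and 3 of 4 cSCC points of Cxcr6 sit below all others.

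Cxcr3, the receptor of Cxcl9 and Cxcl10, was scarce throughout and did not differ detectably between AK and NS. Its lowest, median and highest levels were 0, 1.62 and 3.48 CPM in NS and 0, 1.32 and 2.41 CPM in AK. The AK range lay inside the NS range. The filter left Cxcr3 out of all 3 fits. The difference of mean log2(CPM + 1), AK minus NS, was -0.18 (exact permutation p = 0.611, two-sided). In cSCC replicates 18, 19, 20 and 21 the levels were 0, 10.5, 6.83 and 0.331 CPM, from 0, 24, 6 and 2 counts. Replicates 19 and 20 exceeded all NS and AK samples and the other 2 were at or near 0. The differences were 0.54 against NS (exact permutation p = 0.475) and 0.72 against AK (p = 0.319, smallest possible p 0.00202).

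Ccl5, a ligand of Ccr1, did not pass the test in any comparison. It ranged over 0, 2.65 and 13.7 CPM in NS (lowest, median, highest) and over 1.87, 6.45 and 16.4 CPM in AK. The AK median was above the NS median but 7 of the 8 AK samples lay within the NS range. The log2 fold change for AK vs. NS was 0.69 ± 0.547 (SE) by edgeR (adjusted p = 0.457). Of cSCC replicates 18, 19, 20 and 21, with 8.34, 2.20, 31.9 and 1.65 CPM, only replicate 20 lay above the NS and AK samples. The log2 fold changes were 1.37 ± 0.885 (SE) for cSCC vs. NS and 0.67 ± 0.734 (SE) for cSCC vs. AK (adjusted p = 0.296 and 0.532). Both rested on replicate 20, the sample with the lung genes, and without it they turned to -0.09 and -0.76. Without replicates 20 and 21 they were 0.31 and -0.37.

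Cxcl16 was the steadiest member. Its lowest, median and highest levels were 77.1, 114 and 138 CPM in NS and 92.3, 114 and 153 CPM in AK. Of the 8 NS samples 3 lay below every AK sample and 1 AK sample lay above every NS sample, and the log2 fold change for AK vs. NS was 0.11 ± 0.150 (SE) by edgeR (adjusted p = 0.687). In cSCC replicates 18, 19, 20 and 21 it stood at 194, 208, 108 and 61.5 CPM. The first 2 exceeded every NS and AK sample and replicate 21, the sample with the heart genes, lay below every one. On library size alone replicate 18 had 98.6 CPM, within both ranges, and the log2 fold changes were 0.16 against NS and 0.15 against AK. With the 4 samples the log2 fold changes were 0.46 ± 0.305 (SE) for cSCC vs. NS and 0.39 ± 0.272 (SE) for cSCC vs. AK, not past the threshold (adjusted p = 0.305 and 0.312). Without replicates 20 and 21, Cxcl16 was called higher in both, with log2 fold changes of 0.94 and 0.85 (edgeR, adjusted p = 0.0374 and 0.0195), where 733 of 12762 genes against NS and 843 of 12567 against AK were called higher. Zmynd15, on the opposite strand, shares 552 exonic bases with Cxcl16 but stood at no more than 9.09 CPM in any sample.

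Cxcr6, the receptor of Cxcl16, had its lowest levels in cSCC samples. Its lowest, median and highest levels were 29.6, 44.6 and 81.8 CPM in NS and 36.6, 52.4 and 126 CPM in AK, and the log2 fold change between them was 0.26 ± 0.281 (SE) by edgeR (adjusted p = 0.590). AK replicates 12 and 13, at 102 and 126 CPM, lay above all NS samples and the other AK samples lay among them. In cSCC replicates 18, 19, 20 and 21 the levels were 41.7, 12.3, 20.5 and 0.827 CPM, of which the last 3 lay below every NS and AK sample. cSCC averaged 18.8 ± 17.2 CPM (SD, n = 4), NS 52.3 ± 21.3 CPM (SD, n = 8) and AK 64.0 ± 32.0 CPM (SD, n = 8). The log2 fold changes were -1.48 ± 0.652 (SE) for cSCC vs. NS and -1.74 ± 0.656 (SE) for cSCC vs. AK, neither past the threshold (edgeR, adjusted p = 0.124 and 0.0655). Without cSCC replicate 18 they were -2.36 and -2.64, and both were called lower (edgeR, adjusted p = 0.0287 and 0.0153). In those fits 1291 of 12636 genes against NS and 1664 of 12734 against AK were called lower. Without replicates 20 and 21 the Cxcr6 log2 fold changes were -0.96 and -1.21 (edgeR, adjusted p = 0.239 and 0.151). Fyco1, on the opposite strand, overlaps Cxcr6 but shares 0 exonic bases with it. On library size alone, without the TMM factor that raised the levels of replicate 18, the Cxcr6 log2 fold changes were -1.98 and -2.15 and both were called lower. So were 1332 of 12097 genes against NS and 1356 of 12032 against AK. All 4 cSCC samples, at most 23.2 CPM on that scale, lay below the lowest NS sample (30.9 CPM) and the lowest AK sample (38.0 CPM). The share of all genes without such an overlap was not computed.

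Over the 4 cSCC samples, 0 of 5 members tested were called against NS, where 11.7% of the 12097 genes tested were called higher and 7.65% lower. Against AK, 0 of 6 were called, where 16% of the 12032 genes tested were called higher and 8.34% lower. At an unadjusted p under 0.05, edgeR passed 1 member against NS (Cxcr6) and 2 against AK (Cxcl9 and Cxcr6). DESeq2 called 0 members against NS and 2 lower against AK, Cxcl9 and Cxcr6, and limma voom called Cxcr6 lower against NS and 4 members lower against AK, namely Cxcl9, Cxcl10, Cxcr6 and Ifng. Of all genes, DESeq2 called 1306 lower against AK, and limma voom 1109 against NS and 1496 against AK. The cSCC calls of members therefore differed between tests applied to the same counts. Other cells differed too: of 6 endothelial markers 5 rose against NS and 6 against AK, and Cd207, a marker of Langerhans cells, fell by 4.96 ± 0.890 (SE) against NS on the log2 scale. Without replicates 20 and 21 the 6 endothelial markers had median log2 fold changes of 0.86 against NS and 0.84 against AK with 0 called by edgeR, and Cd207 was still called lower. Their part in the members' levels was not tested. In all 3 comparisons the groups overlapped for each of the 7 genes on CPM with TMM factors. On library size alone the Cxcr6 levels of cSCC, at most 23.2 CPM, overlapped neither NS nor AK.

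**Figure D2:**
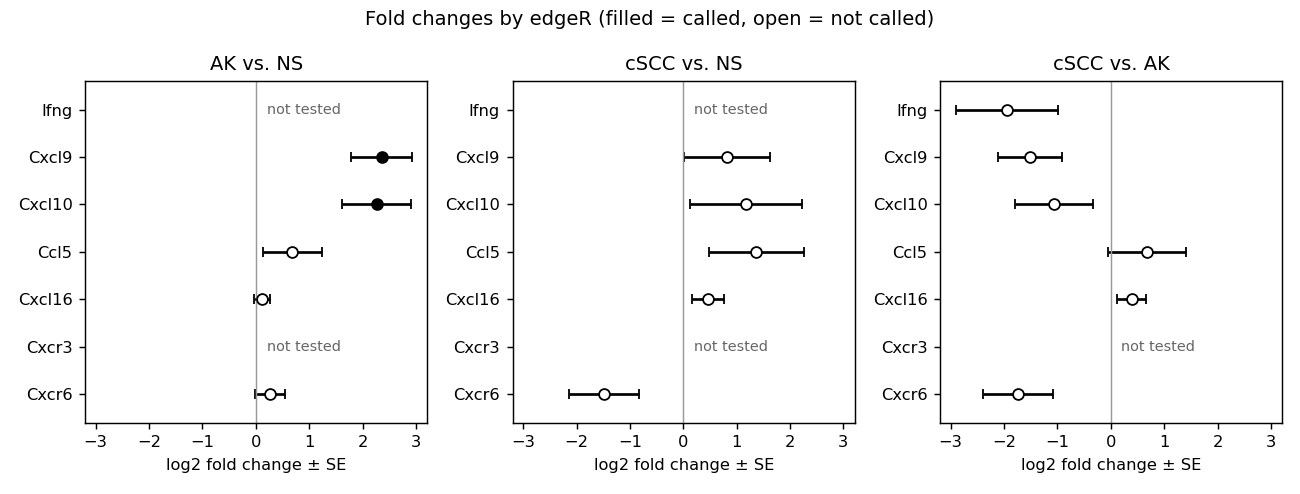
Log2 fold change ± SE of each member by edgeR's quasi-likelihood test in each of the 3 comparisons, with filled points for genes called and "not tested" where the filter on low counts left a gene out. Cxcl9 and Cxcl10 in AK vs. NS are the filled points, at 2.36 and 2.26, and Cxcr6 lies left of 0 in both cSCC comparisons.

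The 2 cSCC samples with the least Cxcr6, replicates 19 and 21, also had the least of the T cell and NK markers. Of 12 T cell markers 9 were analysed (not Trac, Trbc1 and Trbc2), and they summed to 68.9 to 227 CPM in NS, 34.8 to 222 CPM in AK and 45.1, 19.3, 71.7 and 7.44 CPM in cSCC replicates 18, 19, 20 and 21. The 8 NK and cytotoxic markers summed to 50.2 to 154 CPM in NS, 82.7 to 267 CPM in AK and 42.4, 31.2, 64.9 and 4.63 CPM in those cSCC samples. cSCC replicate 21 was the lowest of the 20 samples for Cxcr6 and for both sums. No marker of either list was at 0 in a whole group. Of 7 T cell markers tested, 2 fell in cSCC vs. NS, the T cell receptor subunits Cd3g (log2 fold change -3.60 ± 0.700, SE) and Cd247 (-3.91 ± 0.728, SE), and 1 fell in cSCC vs. AK, Cd3g (-2.93 ± 0.672, SE). Of 5 NK and cytotoxic markers tested, Nkg7, a granule protein of cytotoxic cells, fell against NS by 2.73 ± 0.604 (SE) and against AK by 2.86 ± 0.594 (SE) on the log2 scale. Klrk1, the activating receptor NKG2D, fell against AK by 2.49 ± 0.823 (SE). Of all genes tested, 7.65% were called lower against NS and 8.34% against AK. In AK vs. NS, where 2.26% of all genes were called higher and 2.38% lower, the T cell markers moved both ways. Their median log2 fold change was 0.26 over the 7 tested. Cd247 was called lower (-1.54 ± 0.443, SE), limma voom also called Cd8b1 higher (1.46 by edgeR, adjusted p = 0.207), and Cd8a (1.38) and Cd3d (-0.60) passed an unadjusted p under 0.05 in edgeR. In the same comparison 0 of the 5 NK and cytotoxic markers were called by edgeR. At an unadjusted p under 0.05 2 passed (Gzma, Gzmb), with log2 fold changes of 2.02 and 1.71, and DESeq2 and limma voom each called 1 higher, Gzmb, which encodes a protease that cytotoxic cells release. Of a list of 6 gamma-delta T cell markers 2 were analysed and 1, Cd7, was tested. Cd7 was called lower in AK vs. NS (-1.89 ± 0.506, SE) and cSCC vs. NS (-2.84 ± 0.821, SE), but not in cSCC vs. AK (-0.84). Limma voom called it in neither, and without cSCC replicates 20 and 21 it was not called against NS. Without cSCC replicates 20 and 21, an alternative added after the data were seen, Cd3g, Cd247 and Nkg7 were still called lower against NS and Cd3g and Nkg7 against AK. The part of these markers in the Cxcr6 levels was not tested.

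**Figure D3:**
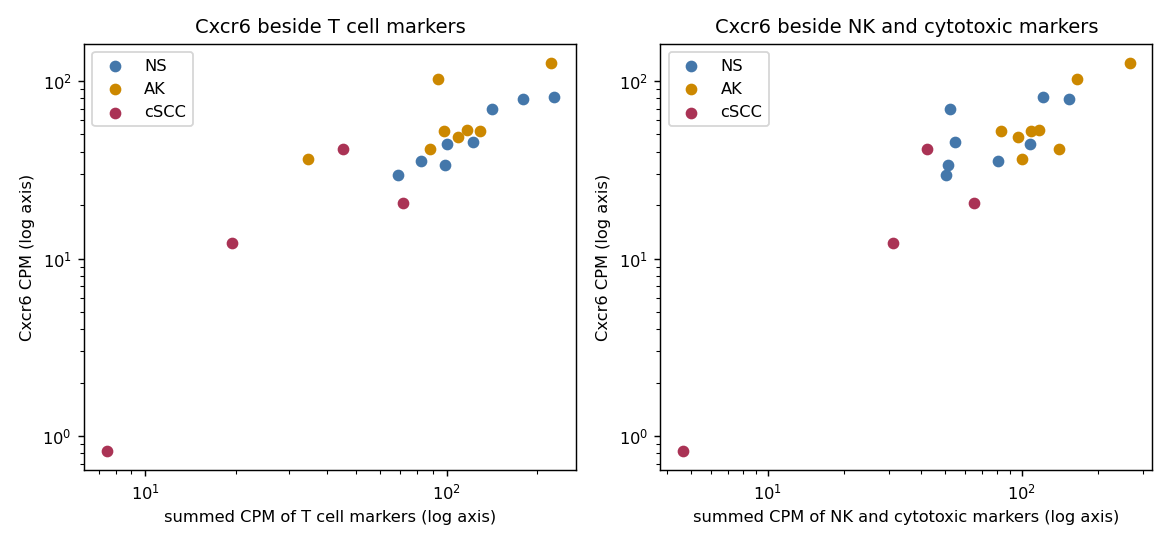
Cxcr6 level (CPM, log axis) of each of the 20 samples beside the summed CPM (log axis) of 9 T cell markers, left, and of 8 NK and cytotoxic markers, right. The lowest point of both panels is cSCC replicate 21, with 0.827 CPM of Cxcr6, and the highest Cxcr6 value, 126 CPM, is AK replicate 13.

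Levels of different genes were compared as CPM per kilobase of exon sequence, joined over all annotated transcripts of a gene. For Cxcl10 this gave 1 block of 2252 bases, the whole gene. Its values per kb may therefore be too low, and its place in the orders below is uncertain. In NS the order of mean levels was Cxcl16 (35.4 ± 7.91 CPM per kb), Cxcr6 (27.1 ± 11.01), Cxcl9 (10.3 ± 11.9), Cxcl10 (6.21 ± 8.47), Ccl5 (4.22 ± 4.42), Cxcr3 (0.897 ± 0.703) and Ifng (0.718 ± 0.700), each with SD and n = 8. The ranges of mean ± SD of all neighbours in that order overlapped. Such ranges do not use the fact that the genes were measured in the same samples. In AK the order of means per kb became Cxcl9 (53.2 ± 32.98), Cxcl16 (38.6 ± 6.57), Cxcr6 (33.2 ± 16.6), Cxcl10 (29.96 ± 14.8), Ccl5 (7.14 ± 4.50), Ifng (3.45 ± 2.01) and Cxcr3 (0.696 ± 0.537). The ranges of mean ± SD of Cxcl10 and Ccl5, and of Ifng and Cxcr3, did not overlap in AK, and those of the other neighbours did. In cSCC (n = 4) the order was Cxcl16 (47.3 ± 23.2), Cxcl9 (17.7 ± 13.8), Cxcl10 (13.996 ± 18.7), Ccl5 (11.5 ± 14.8), Cxcr6 (9.75 ± 8.93), Cxcr3 (2.56 ± 2.98) and Ifng (0.948 ± 1.10), and all neighbours overlapped.

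Some genes of the interferon gamma route were higher in AK. Of 9 of these genes tested in AK vs. NS, 2 rose and 0 fell: Irf1, a transcription factor induced by interferon gamma, by 0.88 ± 0.191 (SE) on the log2 scale, and the kinase gene Jak2 by 0.77 ± 0.172 (SE), with edgeR adjusted p-values of 0.0190 and 0.0215. The median log2 fold change of the 9 was 0.16, beside -0.04 over all genes tested, of which 2.26% were called higher and 2.38% lower. The receptor genes Ifngr1 (0.06) and Ifngr2 (-0.44) were not called. In cSCC vs. AK, 2 of the 9 rose and 1 fell: Ifngr2 by 2.11 ± 0.561 (SE) and Socs3, a feedback inhibitor of cytokine signalling, by 1.32 ± 0.334 (SE) rose, while Nlrc5, an activator of MHC class I genes, fell by 2.32 ± 0.5259 (SE). Over all genes 16% were called higher and 8.34% lower in this comparison. The Ifngr2 value came with 317 CPM in replicate 21, the sample with the heart genes, and 31.3, 41.3 and 29.6 CPM in replicates 18, 19 and 20, beside at most 42.3 CPM in AK, and without replicates 20 and 21 it was not called. In cSCC vs. NS, Irf1 (1.26 ± 0.332, SE) and Socs3 (1.71 ± 0.467, SE) rose and Nlrc5 (-2.06 ± 0.551, SE) fell, beside 11.7% of all genes called higher and 7.65% lower. Without cSCC replicates 20 and 21, Socs3 and Nlrc5 were still called against AK, and Irf1, Socs3 and Nlrc5 against NS.

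No inducer of Ifng was called in AK vs. NS, where low counts left 8 of 14 untested. Of 6 tested, 0 were called by edgeR, DESeq2 or limma voom (median log2 fold change -0.20), with values of -0.84 for Il12rb2, -0.46 for Il18 and 0.44 for Il15ra, and at an unadjusted p under 0.05 in edgeR 1 passed (Il15), with a log2 fold change of -0.76. In cSCC vs. AK, 2 of 7 fell, Il12rb2, a subunit of the interleukin-12 receptor, by 2.87 ± 0.853 (SE) and the cytokine gene Il18 by 2.30 ± 0.696 (SE), and 1 rose, Il18rap, a subunit of the interleukin-18 receptor, by 1.80 ± 0.494 (SE). In cSCC vs. NS the same 3 genes of 6 tested were called in the same directions, with log2 fold changes of -3.80, -2.76 and 1.85. Of all genes, 11.7% were called higher and 7.65% lower against NS, and 16% and 8.34% against AK. Without replicates 20 and 21 only Il18 was still called lower against NS, and none of the 3 was called against AK. Il12b, which encodes a subunit of interleukin-12, had no count in any cSCC sample, in 5 of 8 AK samples and in 3 of 8 NS samples.

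Type I interferon can induce Cxcl10 as well. Beside 2.26% of all genes called higher and 2.38% lower, 7 of 18 genes of its pathway rose in AK vs. NS with 0 lower (median log2 fold change 0.93). The 4 with the smallest adjusted p-values were Stat2 (1.14 ± 0.235, SE), Ifih1, a sensor of viral RNA (0.96 ± 0.207, SE), Ifi44 (2.90 ± 0.665, SE) and Ifit3 (1.5 ± 0.369, SE), of which limma voom did not call Ifit3. In cSCC vs. NS 2 of the 18 rose, Irf7 and Rsad2, beside 11.7% of all genes called higher. In cSCC vs. AK 1 rose, Irf7, and 3 fell, Stat2, Ifih1 and Ddx58, beside 16% of all genes called higher and 8.34% lower. The summed level of the 18 genes ran from 230 to 519 CPM in NS and from 542 to 1159 CPM in AK. It was 1839 CPM in cSCC replicate 18, the cSCC sample with the most Cxcl10 (935 CPM on library size alone), and 342, 436 and 388 CPM in replicates 19, 20 and 21. Without cSCC replicates 20 and 21, Rsad2 was still called against NS and Stat2 against AK. Which of the 2 interferon routes bears on Cxcl10 here was not tested.

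Among genes that share receptors with Ccl5 or act on these chemokines, Ccl3, another ligand of Ccr1, rose in AK vs. NS by 2.76 ± 0.689 (SE) and in cSCC vs. NS by 3.53 ± 0.802 (SE) on the log2 scale. The AK call of Ccl3 was lost by limma voom. Adam10, whose protein can release Cxcl16 from the cell surface, rose in AK vs. NS by 0.60 ± 0.146 (SE), which made 2 of 8 genes of this list higher and 0 lower. Of all genes tested, 2.26% were called higher and 2.38% lower in that comparison. In cSCC vs. NS 3 of 8 rose, namely Ccl3, Ccl4 (3.92 ± 0.795, SE) and the receptor gene Ccr1 (2.88 ± 0.633, SE), and without replicates 20 and 21 these 3 were still called. In cSCC vs. AK, of 9 tested, Ccl4 rose by 2.33 ± 0.697 (SE) and Ackr1, a receptor on vessels that binds chemokines without signalling, fell by 1.95 ± 0.592 (SE), and without those replicates neither was called. Of all genes tested over the 4 cSCC samples, 11.7% were called higher against NS, and 16% higher and 8.34% lower against AK. The median log2 fold changes of the list were 1.04 for AK vs. NS (all genes -0.04), 0.27 for cSCC vs. NS (all genes 0.14) and -0.42 for cSCC vs. AK (all genes 0.17). Cxcl11, the other ligand of Cxcr3, was not analysed here.

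**Figure D4:**
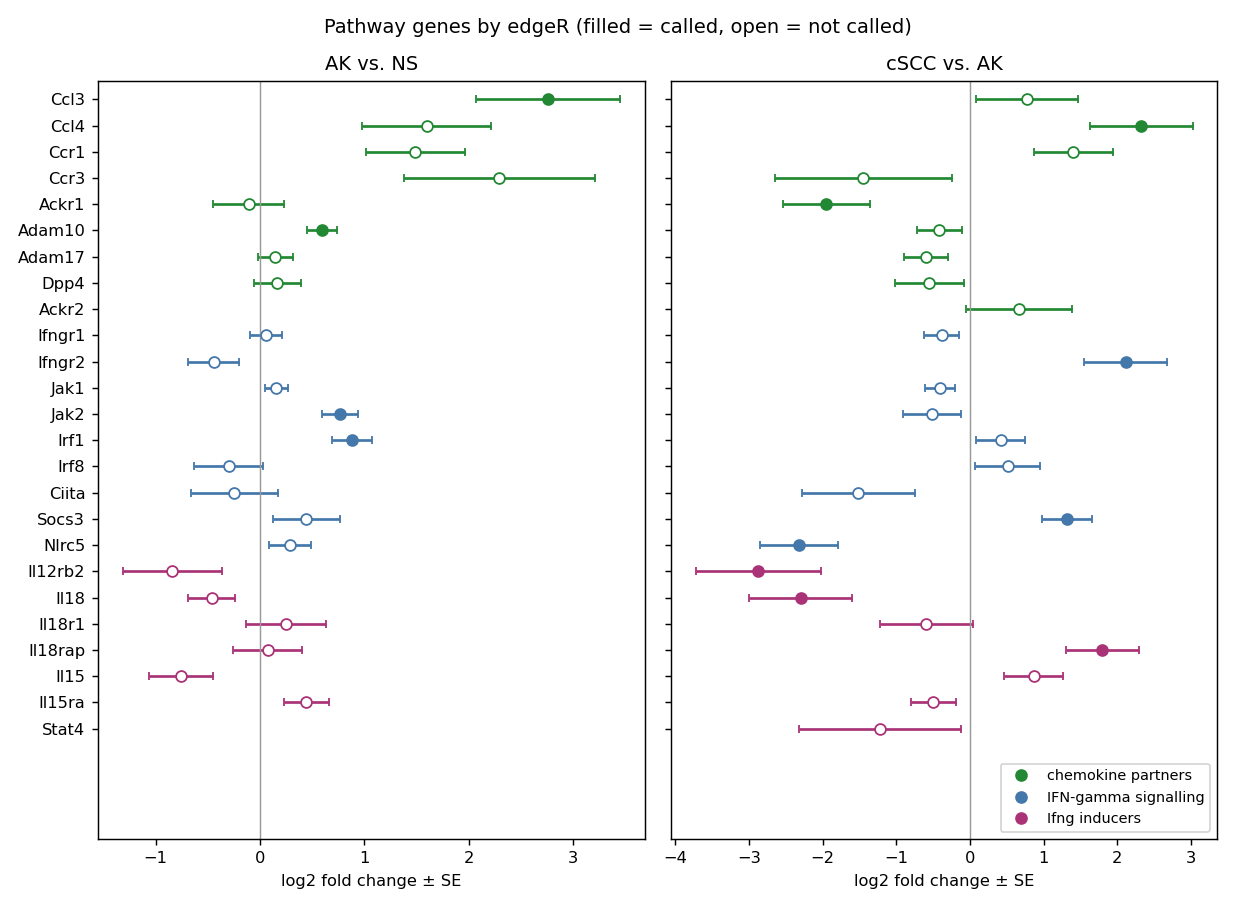
Log2 fold change ± SE by edgeR of genes that share receptors with or process these chemokines (green), of the interferon gamma route (blue) and of inducers of Ifng (purple), for AK vs. NS and cSCC vs. AK, with filled points for genes called. Ccl3, Adam10, Jak2 and Irf1 are filled in AK vs. NS. In cSCC vs. AK, Socs3 is filled at 1.32 and Nlrc5 at -2.32, and Ifngr2, filled at 2.11, was high in replicate 21 alone.

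Within NS, relations between members could be computed for the 5 genes with at least 3 counts in at least 6 of the 8 samples, 10 pairs in all. NS holds samples of irradiated and of unirradiated mice, while the exact permutations take all NS samples as interchangeable. A relation that comes from the irradiation and one within either set of mice therefore cannot be told apart. Cxcl9 and Cxcl10 varied together across the NS samples, with Pearson r = 0.890 (exact permutation p = 0.00345, adjusted over the 10 pairs 0.0345) and Spearman rho = 0.833 (exact permutation p = 0.0154, adjusted 0.0769), and without the 2 samples farthest from the Cxcl9 median r was 0.695. Cxcl16 and Cxcr6 had r = 0.870 (exact permutation p = 0.0141, adjusted 0.0704) and rho = 0.833 (exact permutation p = 0.0154, adjusted 0.0769), with r = 0.762 without the 2 farthest samples, and did not pass the adjustment. The r of the other 8 pairs lay between -0.05 and 0.412. No pair joined a member of the Cxcl9 and Cxcl10 pair with Cxcl16 or Cxcr6 at an r above 0.184.

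Within AK, r and rho are given without a p because the 8 tissues came from 4 mice. Of 21 pairs over all 7 genes, the highest was Cxcl9 with Ifng (r = 0.758, rho = 0.619), and it fell to 0.298 without the 2 samples farthest from the Cxcl9 median. Cxcl10 with Ifng had r = 0.284 (rho = 0.119). Cxcl10 with Cxcr3 had r = 0.748 and, without the 2 farthest samples, -0.19. Cxcl9 had r = 0.605 with Cxcl10, 0.659 with Ccl5 and 0.679 with Cxcr6, and without the 2 farthest samples these were 0.108, 0.824 and -0.11. Cxcl16 and Cxcr6, a ligand and its receptor, had r = -0.24 in AK. The difference of r between the groups was not tested. The 4 cSCC samples were too few for a correlation.

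**Figure D5:**
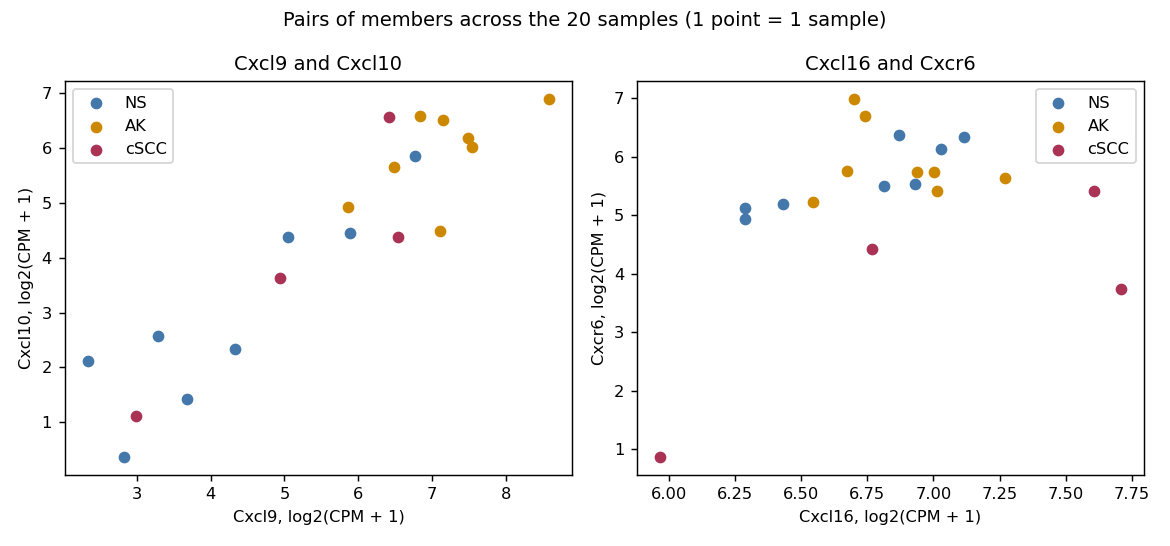
Cxcl10 against Cxcl9, left, and Cxcr6 against Cxcl16, right, as log2(CPM + 1) in each of the 20 samples. Cxcl9 and Cxcl10 rise together in NS (r = 0.890), while the cSCC samples with the most Cxcl16 (194 and 208 CPM) have 41.7 and 12.3 CPM of Cxcr6.

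The genes most like each member were taken over the 16 NS and AK samples by Pearson r of log2(CPM + 1), as a description, since these samples share a difference between groups and a common scaling. For Cxcl9 they included Ifi47 (r = 0.967), Ly6a (0.963), Samhd1 (0.957) and Gbp2 (0.955). For Cxcl10 they included Stom (0.958), Gbp2 (0.937), Oasl2 (0.936) and Phf11d (0.931), so that Gbp2 stood in both lists. For Cxcr6 they were Ubd (0.783), Klrd1 (0.767), Ikzf1 (0.738), Itgal (0.734) and Irak2 (0.706), of which Klrd1 encodes the NK cell receptor chain CD94 and Itgal an integrin chain of leukocytes. For Cxcl16 they were Icos (0.851), a receptor of activated T cells, Metrnl (0.824), Gpr171 (0.788), H2-M2 (0.787) and Tmem214 (0.761). For Ccl5 they were Lair1 (0.816), an inhibitory receptor of leukocytes, Dynlt1c (0.810), Spink12 (0.800), Dram1 (0.790) and Gsta3 (0.775). Ifng and Cxcr3 were below the filter for this search.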

How the data were processed

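The authors deposited raw gene counts that were not normalized, 1 column for each of 20 samples. By the paper's methods the reads were trimmed with Trimmomatic, aligned to GRCm38 with HISAT2 and quantified with StringTie. The submitters' processing notes instead name Trimmomatic 0.36, HISAT2 2.0.5, featureCounts 1.5.2 and, among builds, mm9. The strand setting and annotation are not given in the sources used here. The labels name a HiSeq and daily irradiation, the paper a NextSeq and fewer days.

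CPM were computed from these counts with edgeR 4.0.16 (R 4.3.3) and TMM factors over the 20 samples. Each comparison used only its 2 groups, with filterByExpr, edgeR's quasi-likelihood test and Benjamini-Hochberg adjustment over the genes tested. A call needed an adjusted p under 0.05 together with a fold change beyond 1.5 upward or 0.67 downward. SE is the log2 fold change over the square root of F. Members left out by the filter were compared by exact permutation of log2(CPM + 1). Alternatives were DESeq2 1.42.0, limma 3.58.1 voom, library size alone, upper quartile factors, other filters, 1 fit to all samples, a pseudocount of 0.1, and fits that left samples out. Levels and permutations used pandas 2.3.3, numpy 2.4.6, scipy 1.17.1 under Python 3.11.15. The edgeR test was first run on simulated counts, and the permutation of group differences was checked on random values. DESeq2, limma voom, the permutation of correlations and Dixon's criterion were not checked in this way. Gene positions and exon lengths are from GENCODE M21 (GRCm38) and start-site windows from RefSeq (GRCm38.p6), which matched 5 of the 7 genes.

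The members and gene lists were chosen with earlier results of these data known. The genes named are all members, at most 4 called genes per list and comparison by smallest adjusted p, the 5 genes most like each member, and genes overlapping one. Some genes of the lists are not reported here and were left out of the list counts. Those named with a value that was not called, and Il12b, were named after their values were seen, as were the counts for gene lists without cSCC replicates 20 and 21. The labels tie no sample to a mouse. Samples were treated as independent although, by the paper, the AK samples came from 4 mice that also gave the cSCC and some NS samples. The p-values therefore measure the spread between samples and not between mice. No 2 libraries of a group agreed within sampling noise (smallest chi-square per degree of freedom 11.3 over 62 pairs).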

Additional observations from a re-analysis of the deposited data

Results flagged for a closer look

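In 21 groups, 1 for each of the 7 genes in NS, AK and cSCC, the highest or lowest CPM was checked by Dixon's criterion for a sample far from the others. For normally distributed values chance meets it in about 1 of 20 groups. CPM are skewed toward high values, so this rate does not hold here. The criterion was met in 4 groups, which cannot be read as an excess over chance. AK replicate 13 had 382 CPM of Cxcl9, with 186 CPM in the next AK sample, and 16.4 CPM of Ccl5, with 7.77 CPM in the next. NS replicate 7 had 56.8 CPM of Cxcl10, with 21.01 CPM in the next NS sample, and 13.7 CPM of Ccl5, with 5.18 CPM in the next. So the same sample of each group was high for Ccl5 and for a ligand of Cxcr3. These 2 samples also had the highest summed NK and cytotoxic markers of their groups, 267 CPM in AK replicate 13 and 154 CPM in NS replicate 7, and the macrophage and dendritic markers summed to 1153 CPM in AK replicate 13, with 1151 CPM in AK replicate 14, and to 657 CPM in NS replicate 7, the fourth highest of NS. The T cell markers summed to 222 CPM in AK replicate 13, the highest in AK, and to 179 CPM in NS replicate 7. The part of these cells in the 4 levels was not tested.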

How the results depend on the processing

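No paired analysis was possible because the labels give each sample a number of its own and tie none to a mouse. Of the 5 members tested in AK vs. NS, the number called higher was 1 with upper quartile factors and 1 with no filter on low counts, where Cxcl10 was lost (adjusted p = 0.0517 and 0.0555), and 0 with all 20 samples in 1 fit. It ranged from 0 to 2 when each sample was left out in turn. In cSCC vs. NS the number called lower was 1 by limma voom and 1 on library size alone, both Cxcr6, and 0 to 1 when 1 sample was left out, and the number called higher was 1 without cSCC replicates 20 and 21. In cSCC vs. AK the number called lower was 2 by DESeq2, 4 by limma voom, 1 on library size alone and 1 with all 20 samples in 1 fit, and 0 to 2 when 1 sample was left out, and the number called higher was 1 without cSCC replicates 20 and 21. Library size alone moved the median log2 fold change of all genes from 0.14 to -0.17 in cSCC vs. NS and from 0.17 to -0.09 in cSCC vs. AK, and turned 1414 higher and 926 lower calls against NS into 625 and 1332, and 1931 and 1004 against AK into 1021 and 1356. Over all genes, AK vs. NS had 264 calls higher and 278 lower, which became 433 and 616 by DESeq2, 176 and 481 on library size alone, 190 and 391 with upper quartile factors and 5 and 4 with all 20 samples in 1 fit. That single fit gave 1783 and 1488 for cSCC vs. NS and 2131 and 1634 for cSCC vs. AK, limma voom 1059 and 1109 and 1684 and 1496, and leaving out cSCC replicates 20 and 21 733 and 825 and 843 and 741.

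Some values with no call changed sign. Ccl5 in cSCC vs. AK was -0.25 by limma voom and -0.37 without cSCC replicates 20 and 21, and ranged from -0.76 to 1.03 when 1 sample was left out. Ranges of that kind in cSCC vs. NS were -0.0865 to 2.00 for Ccl5, -0.40 to 2.06 for Cxcl10, -0.0618 to 1.11 for Cxcr3 and -0.23 to 0.40 for Ifng, and Ifng was -0.0866 with a pseudocount of 0.1 (Cxcr3 and Ifng as differences of mean log2 values). The cause of these changes was not tested, beyond the samples left out. In AK vs. NS the Cxcl9 and Cxcl10 differences kept their direction under every alternative run, from 2.04 to 3.02 and from 2.08 to 3.18 when 1 sample was left out, and Ifng from 1.37 to 1.67. At this depth Cxcr3 and Ifng rest on 60 counts or fewer in any sample.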
